A study of Oryza sativa with 9 samples.

Results

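The genes described here stepped down from wild type to *osmads58* dSpm to *osmads58* CRISPR in the RNA of young rice panicles. They were chosen on their own levels, so the steps themselves are a description and not a finding. Counts were scaled by each sample's sum to CPM, the count of a gene per 1000000 counts of its sample. A gene was taken when it averaged 1 CPM or more over the 9 samples, every wild-type value exceeded every dSpm value, every dSpm value exceeded every CRISPR value, and the wild-type mean was at least 1.5 times the CRISPR mean. This gave 155 of the 20560 genes that averaged 1 CPM or more (0.754%), called expressed genes from here on, out of 56143 genes in the table. *OsMADS58* (LOC_Os05g11414) met the same rule and was left out of the 155 because it is the mutated gene.

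The study compared panicles about 1 cm long from *Oryza sativa* ssp. *japonica* cv. Nipponbare plants without a mutation (samples WT-1, WT-2 and WT-3), plants of *osmads58* dSpm (58Z-1, 58Z-2, 58Z-4b and 58Z-5b) and plants of *osmads58* CRISPR (58CRIS-1 and 58CRIS-2). According to the study, the dSpm allele carries a transposon in an intron of *OsMADS58*, lowers its expression without abolishing it and leaves the plants fertile. The CRISPR lines of the study carry different small insertions or deletions, each giving a frameshift in an early exon. By the study's methods only part of the CRISPR homozygotes were completely sterile. The plants used were male sterile and so were chosen by phenotype as well as genotype. Each CRISPR sample pooled 8 panicles from 4 homozygous plants of 1 transgenic line. The CRISPR samples came from independent lines, and the study's methods do not say which edit each carries. The samples of the other groups came from separate lines. A whole panicle holds many tissues, so fewer cells of a type and less RNA per cell cannot be told apart in these data.

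OsMADS58 is a C-class MADS box transcription factor. C-class proteins act with B-class MADS proteins to give stamens their identity, and act in the carpel as well. Rice has a pair of such genes, *OsMADS3* and *OsMADS58*, with overlapping roles. MADS proteins bind DNA as dimers or larger complexes and can raise or lower the transcription of the genes they bind. A gene that steps with the dose of such a factor may be bound by it or may lie downstream, and levels alone do not separate these.

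The *OsMADS58* transcript was measured at 7.36, 3.15 and 3.84 CPM in the wild-type samples. In the dSpm samples it was at 1.94 CPM in 58Z-1, 0.721 in 58Z-2, 1.87 in 58Z-4b and 2.1 in 58Z-5b. The CRISPR samples had 0.295 and 0.525 CPM. The 3 groups did not overlap, so the groups of the 155 genes are ordered as the transcript is. The transcript was scarce, however, with 47 counts in 58Z-2 and 20 and 42 in the CRISPR samples, and its differences within a group are correspondingly uncertain.

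Column sums ranged from 65192657 to 83042245 counts. All 28 meiotic genes that the study listed for this tissue were expressed genes, as were 8 of its 9 photosynthesis genes, the other being at 0. The summed level of the photosynthesis genes was 85.5 to 101 CPM in wild type, 107 to 134 in dSpm and 139 to 166 in CRISPR. The summed level of the meiotic genes was 839 to 873 CPM in wild type, 660, 777, 1187 and 1210 in 58Z-1, 58Z-2, 58Z-4b and 58Z-5b, and 838 and 936 in CRISPR. The study describes photosynthetic genes as targets of OsMADS58 that were raised in both mutant lines. What these differences reflect, and their part in the steps, was not tested.

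The 155 genes together held 4.34, 3.54 and 3.49% of all counts in the wild-type samples. Their share was 2.60, 2.75, 2.1 and 2.15% in 58Z-1, 58Z-2, 58Z-4b and 58Z-5b, and 1.42 and 1.3% in the CRISPR samples. Against the wild-type mean, the median gene lay at -0.51, -0.35, -0.74 and -0.71 on the log2 scale in the dSpm samples in the same order, and at -1.27 and -1.33 in the CRISPR samples. By the column sum the genes were therefore closest to wild type in 58Z-2, which had the least *OsMADS58* transcript of the dSpm samples. The median of all expressed genes moved the other way, to 0.22 and 0.25 in the CRISPR samples.

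**Figure D1:**
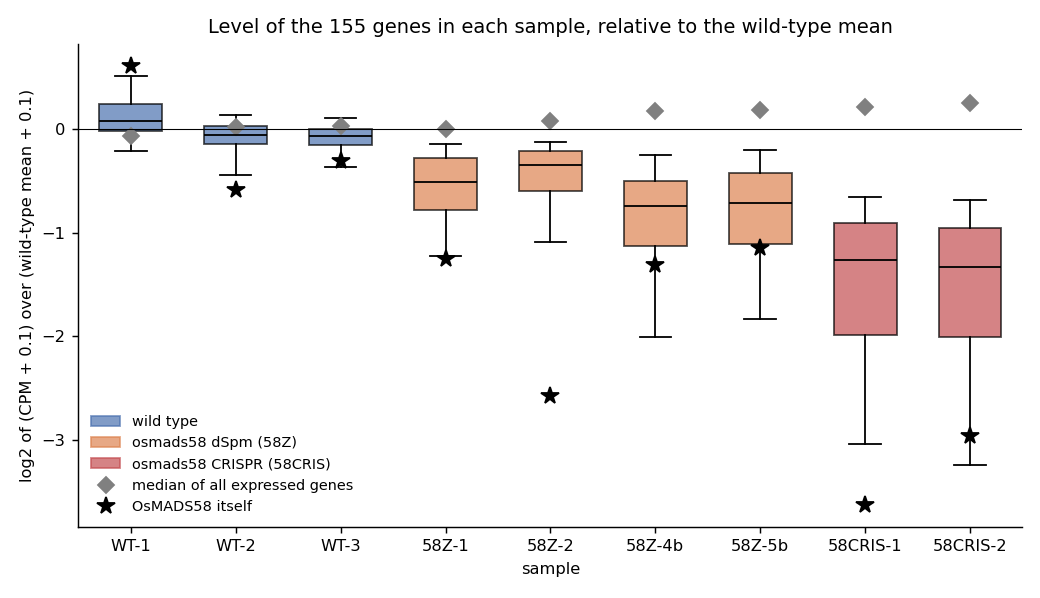
Levels of the 155 genes in each of the 9 samples, as log2 of CPM plus 0.1 over the wild-type mean plus 0.1. Boxes span the quartiles around the median line and whiskers run from the 5th to the 95th percentile, diamonds are the median of all expressed genes, and stars are *OsMADS58*. The boxes go down from the WT to the 58Z to the 58CRIS samples. The star lies below the box in every 58Z and 58CRIS sample, and far below it in 58Z-2 and 58CRIS-1.

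The scale matters for how many genes show this order. With CPM from TMM library sizes, which assume that most genes do not change, levels in dSpm and CRISPR shifted by -0.11 and -0.25 on the log2 scale against wild type. The same rule then took 290 genes, of which 143 were among the 155. The mirrored rule, with CRISPR highest and wild type lowest, took 338 genes by the column sum and 179 by TMM. Stepping down was thus less frequent than stepping up on the first scale and more frequent on the second.

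Other orders of the groups, added to the plan after the data had been seen, gave between 40 and 315 genes by the column sum. With wild type highest and dSpm lowest there were 40 genes, with dSpm highest and CRISPR lowest 315, with dSpm highest and wild type lowest 193, and with CRISPR highest and dSpm lowest 150. With TMM levels these counts were 55, 328, 148 and 154 in the same order, beside the 290 that stepped down. An order in which dSpm lay between the other groups was thus not the only frequent one on either scale.

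The steps were mostly small and of similar size. The wild-type mean was 1.49 times the dSpm mean in the median gene, the dSpm mean 1.65 times the CRISPR mean, and the wild-type mean 2.46 times the CRISPR mean, with a range from 1.52 to 57.2. In 110 genes the whole step from wild type to CRISPR was at least 2 times, and in 40 at least 4 times. The values of neighbouring groups often nearly touched, since the lowest wild-type value exceeded the highest dSpm value by a median factor of only 1.09. Both gaps were at least 1.1 times in 58 genes, at least 1.2 times in 24 and at least 1.5 times in 3.

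On the log2 scale, the dSpm mean covered a median of 43.9% of the way from wild type to CRISPR, with a range from 9.19 to 82.1%. For *OsMADS58* itself it covered 43.1%, a value that rests on few counts, 47 in 58Z-2 and 20 and 42 in the CRISPR samples. The study describes *osmads58* CRISPR as a null mutant, so its remaining transcript does not measure working protein, and the closeness of these positions was not tested. The dSpm mean lay nearer to wild type in 101 of the 155 genes. Among the 40 genes with at least a 4-fold step the median position was 39.9%, and it was 45.6% among the 70 genes of 2 to 4 times and 43.3% among the 45 below 2 times. The share of genes with the dSpm mean nearer to wild type was 77.5, 61.4 and 60.0% in these bands.

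**Figure D2:**
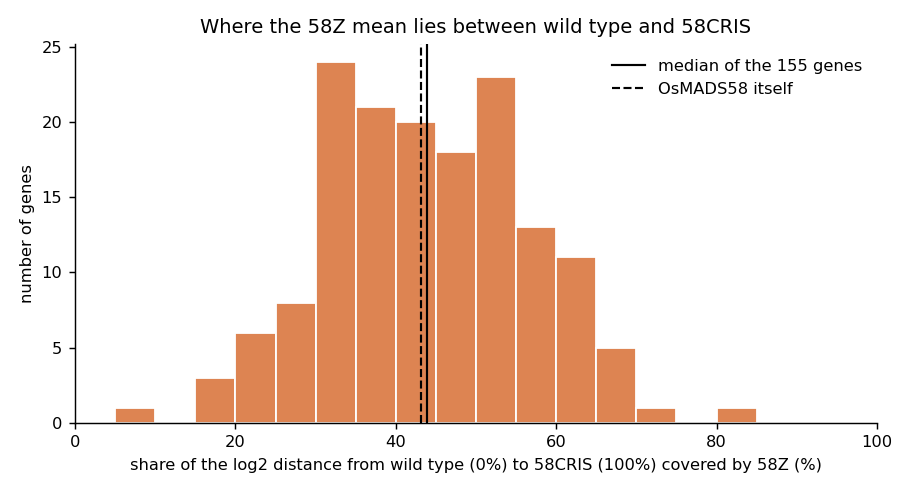
Number of genes, of the 155, by the share of the log2 distance from the wild-type mean to the 58CRIS mean that the 58Z mean covered. The solid line is the median of 43.9% and the dashed line is *OsMADS58* at 43.1%.

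The genes were abundant ones. Their median level over the 9 samples was 71.5 CPM, against 18.4 CPM for all expressed genes. At least 10 CPM was reached by 135 of the 155 (87.1%, against 64.5% of all) and at least 100 CPM by 68 (43.9% against 11.0%). A rule that asks for groups without overlap favours genes whose samples vary little. The standard deviation of the median gene was 9.67% of its mean in wild type and 16.4% in dSpm, against 19.2 and 25% over all genes. In CRISPR it hardly differed, at 6.45% against 6.80%.

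Just inside the fold limit lay genes with a wild-type to CRISPR ratio of 1.52 and 1.53, and just outside it genes in the same order with 1.498 and 1.493. In all, 27 genes had the order but a ratio under 1.5. Just inside the level limit were means of 1.38 and 1.40 CPM, and just outside it 0.634 and 0.537 CPM. Only 6 genes had the order and the ratio with a mean under 1 CPM.

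The tables of the study annotate 10 of the 155 genes, and no other source used here names the rest. 9 of the 10 belong to its list of oxidation-reduction genes. Oxidation-reduction genes code for enzymes that pass electrons between molecules, and such enzymes set the redox state of a cell. The study chose this list with the help of these samples and shows only differentially expressed genes in its figure of it. Neither a direction nor a share of stepping genes in the list is therefore independent evidence, and nothing is read from the shares. Of its 183 expressed genes, 9 stepped down (4.92%, against 0.754% of all expressed genes) and 4 stepped up, where 1.64% of all expressed genes did. Over the list, the median log2 ratio of wild type to CRISPR was 0.87, against -0.24 over all genes.

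LOC_Os03g55240 had the largest step among the 9. Its level was 91.6, 53.1 and 55.1 CPM in WT-1 to WT-3, then 36.2, 35.8, 20.7 and 16.3 CPM in 58Z-1, 58Z-2, 58Z-4b and 58Z-5b, and 10.4 and 10.3 CPM in 58CRIS-1 and 58CRIS-2. The mean fell from 66.6 ± 21.6 CPM (SD, n = 3) to 27.2 ± 10.3 (n = 4) and 10.3 ± 0.0651 (n = 2), a ratio of 6.44 from wild type to CRISPR. The spread within wild type comes from WT-1, and within dSpm the values of 58Z-4b and 58Z-5b were the low ones.

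LOC_Os04g39980 was at 33.2, 30.9 and 32.1 CPM in wild type, 10.4, 22.8, 7.93 and 9.64 CPM in dSpm in the same order, and 7.48 and 7.90 CPM in CRISPR. It was tight in wild type and in CRISPR, while 58Z-2 stood well above the other dSpm samples. The lowest dSpm value, of 58Z-4b, almost met the higher CRISPR value. LOC_Os09g26880, the most abundant of the 9, was at 677, 628 and 639 CPM in wild type, at 506, 606, 327 and 352 CPM in dSpm, and at 215 and 221 CPM in CRISPR. Here 58Z-2 nearly reached wild type, and 58Z-4b and 58Z-5b were well below both other dSpm samples.

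LOC_Os10g38110 was at 17.7, 16.7 and 18.8 CPM in wild type, 9.65, 10.3, 6.96 and 8.53 CPM in dSpm, and 6.48 and 5.53 CPM in CRISPR. LOC_Os01g11150 was at 14.7, 14.8 and 12.7 CPM in wild type, 7.91, 7.27, 6.79 and 8.12 CPM in dSpm, and 4.92 and 6.38 CPM in CRISPR. In both genes most of the drop lay between wild type and dSpm, with 64.1 and 68.5% of the log2 distance covered there. LOC_Os12g01530 was at 491, 471 and 527 CPM in wild type, 350, 439, 327 and 285 CPM in dSpm, and 233 and 193 CPM in CRISPR. Its dSpm mean covered 41.2% of the distance.

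The last 3 had CRISPR means close to a 2-fold reduction. LOC_Os02g07680 was at 295, 396 and 423 CPM in wild type, 276, 291, 203 and 230 CPM in dSpm, and 188 and 177 CPM in CRISPR, so that WT-1 and 58Z-2 were nearly level. LOC_Os08g37874 was at 36.4, 35.0 and 34.6 CPM in wild type, 20.4, 29.7, 19.4 and 18.0 CPM in dSpm, and 17.1 and 17.5 CPM in CRISPR. LOC_Os04g41260 was at 89.4, 94.9 and 91.8 CPM in wild type, 65.2, 78.4, 49.2 and 53.4 CPM in dSpm, and 49.0 and 42.9 CPM in CRISPR. In LOC_Os08g37874 and LOC_Os04g41260 the lowest dSpm value was barely above the highest CRISPR value.

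Within these 9 genes 58Z-2 was the highest dSpm sample in 7, and 58Z-4b and 58Z-5b were both below 58Z-1 and 58Z-2 in 8. Their dSpm means were nearer to CRISPR than to wild type in 6 of 9, against 54 of all 155. The exception to the second count was LOC_Os01g11150, where 58Z-5b was the highest dSpm sample.

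The study chose LOC_Os10g38110 and LOC_Os03g55240 for quantitative PCR, and its primers are given here because they mark the transcripts that were measured by a second method. Each primer is written 5′ to 3′, as listed by the study.
LOC_Os10g38110 forward: cacatcctccggaccaactt
LOC_Os10g38110 reverse: tcctctgctgcttccacttg
LOC_Os03g55240 forward: ctacttctcgccgtgggaca
LOC_Os03g55240 reverse: aggagacagccgttgattgt
LOC_Os10g38110 lies on chromosome 10 and LOC_Os03g55240 on chromosome 3 by their identifiers. The PCR values were not used here. Of the 11 genes on that PCR list, these 2 stepped down (18.2%, against 0.754% of all expressed genes) and 1 stepped up. The study picked the genes to check altered expression seen in its RNA-seq, so nothing is read from this share.

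LOC_Os04g41110 was the only one of the 155 on the study's meiosis list, whose genes act in the division that forms haploid cells. It was at 492, 341 and 344 CPM in wild type, 323, 290, 235 and 227 CPM in dSpm, and 67.8 and 66.7 CPM in CRISPR. The dSpm mean of 269 ± 45.6 CPM (SD, n = 4) stood against a wild-type mean of 392 ± 86.1 (n = 3), and the CRISPR mean was 67.2 ± 0.747 (n = 2). Only 21.4% of the log2 distance lay between wild type and dSpm, so this gene fell mainly from dSpm to CRISPR. The list as a whole went the other way, with a median log2 ratio of wild type to CRISPR of -1.92 over 25 genes. The study chose its meiosis and cell-cycle lists, too, with the help of these samples, so this median is no independent evidence of a direction. None of the 18 cell-cycle genes, the 28 meiotic genes of the marker list or the 8 expressed photosynthesis genes was among the 155. Only 0.754% of all expressed genes were, so lists this short would seldom hold any, and nothing is read from their absence.

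**Figure D3:**
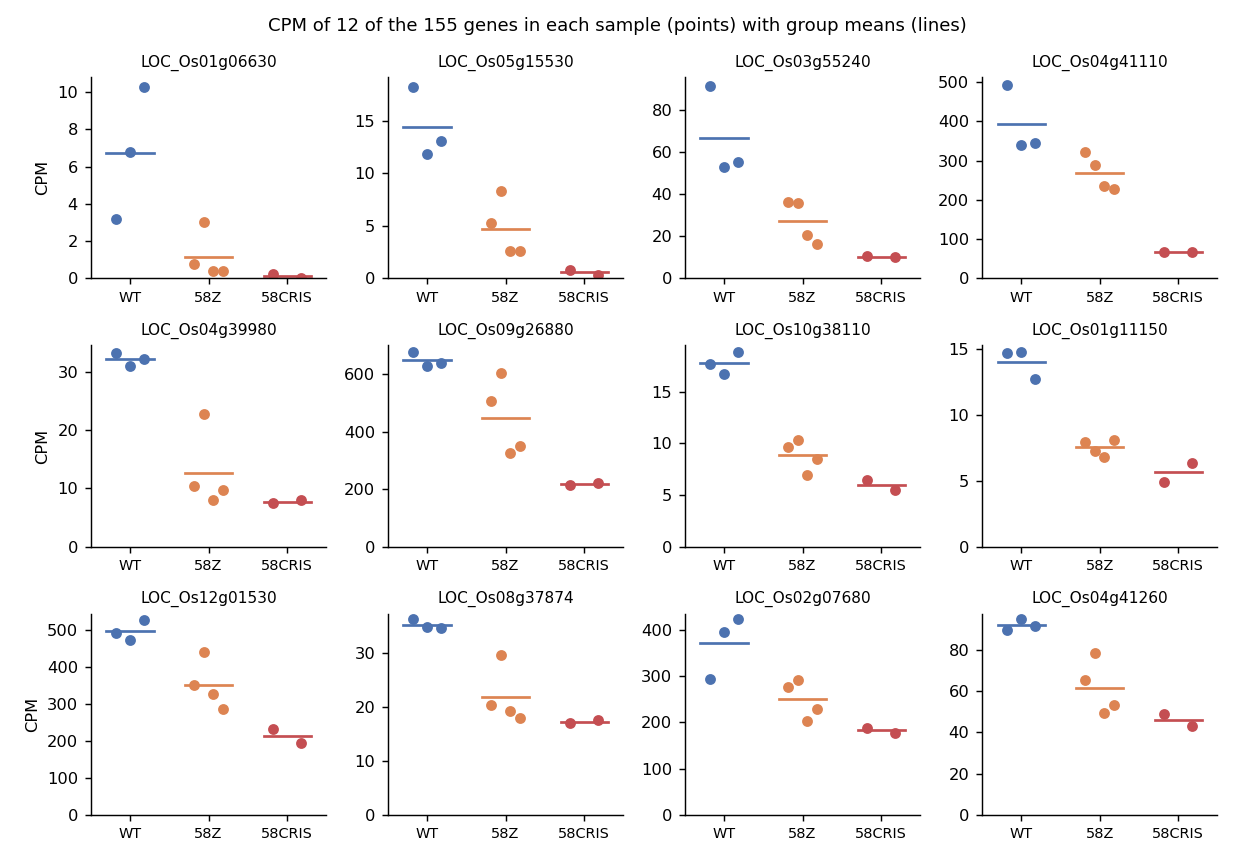
CPM of the 10 annotated genes and the 2 genes with the largest ratio, of the 155, in each sample. Points are samples in the order of their labels, lines are group means and each vertical axis starts at 0. In no panel do the points of neighbouring groups overlap, and in most panels the second 58Z point, 58Z-2, is the highest of its group.

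The remaining 145 genes carry no annotation in the sources used here. The largest ratio, 57.2, was that of LOC_Os01g06630, which had 3.22, 6.77 and 10.3 CPM in wild type. It had 0.785, 3.05, 0.371 and 0.370 CPM in dSpm, and 0.236 CPM (16 counts) and 0 in CRISPR. A count of 0 in 58CRIS-2 allows up to 3 counts, or 0.0375 CPM, as far as counting error goes. The value of 58Z-2 almost reached that of WT-1, while the other dSpm samples were far below both. LOC_Os05g15530 came next with a ratio of 25. It was at 18.2, 11.8 and 13.0 CPM in wild type, 5.24, 8.34, 2.58 and 2.59 CPM in dSpm, and 0.797 and 0.350 CPM in CRISPR, again with 58Z-4b and 58Z-5b low.

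LOC_Os01g52260, LOC_Os09g15520 and LOC_Os06g38294 are the 3 genes with both gaps at least 1.5 times, and were picked for that after their values had been seen. LOC_Os01g52260 was at 877, 801 and 780 CPM in wild type, 394, 420, 386 and 361 CPM in dSpm, and 75.2 and 61.1 CPM in CRISPR. LOC_Os06g38294 was at 68.9, 40.2 and 38.6 CPM in wild type, 18, 22, 21 and 21 CPM in dSpm, and 11.3 and 7.84 CPM in CRISPR. In both, the 4 dSpm samples lay closer together than in most genes named above, although 58Z-2 was again the highest of them. LOC_Os09g15520 was a low-level gene, at 4.06, 4.35 and 4.47 CPM in wild type, 2.37, 1.44, 1.88 and 1.37 CPM in dSpm and 0.502 and 0.150 CPM in CRISPR.

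A gene whose CRISPR samples disagreed was LOC_Os09g30414, also chosen after its values had been seen. It was at 1087, 558 and 584 CPM in wild type and 557, 330, 268 and 282 CPM in dSpm. In CRISPR it was at 133 CPM in 58CRIS-2 and had 0 counts in 58CRIS-1, which allows up to 0.0443 CPM. Its lowest wild-type value and its highest dSpm value were nearly the same. It and LOC_Os01g06630 were the only genes of the 155 with a sample at 0.

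Since the rule used the contrasts between the groups, calls in them are given only beside their background. A call was a Benjamini-Hochberg adjusted p below 0.05 together with a log2 fold change beyond 1 in size, from edgeR's quasi-likelihood test of the 27251 genes with enough counts. All 155 had enough counts. In dSpm against wild type 4 of the 155 were called lower, where 0.268% of all genes tested were. These were LOC_Os01g52260, LOC_Os06g38294, LOC_Os10g38110 and LOC_Os01g11150. In CRISPR against wild type 136 were called lower, where 3.51% of all genes were, and in CRISPR against dSpm 34, where 3.93% were. The median log2 fold changes of the 155 were -0.68, -1.56 and -0.86 in the 3 contrasts, against 0.06, 0.00 and -0.05 over all genes tested.

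Both steps, wild type to dSpm and dSpm to CRISPR, were called for 2 genes, LOC_Os01g52260 and LOC_Os06g38294. In 100 genes the only call was that of CRISPR against wild type, and 19 had no call at all. With only 58Z-4b and 58Z-5b as the dSpm group the count lower than wild type was 66, and with only 58Z-1 and 58Z-2 it was 0, where 85 of the 155 had an unadjusted p under 0.05. Over all genes the lower calls of these fits were 1273 and 15, against 73 with all samples, so the background moved as well. DESeq2 called 29 of the 155 and 336 of all genes with all samples. Any sample left out moved the count of 4 by more than 1.5 times, to 1 without WT-2, WT-3, 58Z-4b or 58Z-5b, to 2 without WT-1, 58CRIS-1 or 58CRIS-2, to 8 without 58Z-1 and to 28 without 58Z-2, while calls over all genes ranged from 12 to 452. With 58CRIS-1 left out the count of CRISPR against wild type was 11, and with 58CRIS-2 left out it was 4, as calls over all genes went from 957 to 39 and 17. Against dSpm it was 3 in either case, with 98 and 66 over all genes against 1070. In these fits the remaining CRISPR sample is taken to vary like the other groups. The contrasts share their control samples and their counts are not independent.

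A sample that the rule did not use gives a description of the pattern that the choice does not fix. The rule was applied to 8 samples, and the ninth was then read in the genes so chosen. It counted as inside its band when a wild-type value exceeded every dSpm value, a CRISPR value was below every dSpm value, or a dSpm value was between both groups. The dSpm band is closed on both sides and so is harder to meet by any gene. In every gene chosen on the other 8 samples this band is open, since wild type exceeds CRISPR there. Over all expressed genes the median log2 ratio of wild type to CRISPR was -0.24, so in many of them the band is empty. For dSpm the share over all genes is thus low by construction. Genes are not independent of one another, and intervals below are 95% Wilson intervals of a share that cover counting of genes only.

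Left-out wild-type values fell inside their band in 69.7% of 218 genes for WT-1 (63.3 to 75.4%), 87.3% of 181 for WT-2 (81.7 to 91.4%) and 85.4% of 185 for WT-3 (79.6 to 89.8%). The same shares over all expressed genes were 16.9, 14.8 and 14.2%. Left-out CRISPR values were inside in 79.0% of 195 genes for 58CRIS-1 (72.7 to 84.1%) and 90.1% of 171 for 58CRIS-2 (84.7 to 93.7%), against 22.2 and 22.0% over all genes. For the outer groups, then, most genes chosen without a sample also had that sample on the side of its group.

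The dSpm samples divided. 58Z-4b and 58Z-5b were inside in 91.7% of 169 genes (86.6 to 95%) and 90.6% of 171 (85.3 to 94.2%), against 6.01 and 5.51% over all genes. 58Z-1 was inside in only 49.4% of 314 genes (43.9 to 54.9%) and 58Z-2 in 53.1% of 292 (47.4 to 58.7%), against 3.73 and 4.93%. Most misses of these samples were at the wild-type end: 58Z-1 was at or above the lowest wild-type value in 143 of the 314 genes and at or below the highest CRISPR value in 16, and for 58Z-2 these counts were 127 and 10 of 292. In 58Z-1 and 58Z-2, left out singly, a middle place thus held for about as many genes as it failed. With 58Z-4b or 58Z-5b left out, the other of them stayed in the choice. Both were below 58Z-1 and 58Z-2 in 106 of the 155 genes, so their high shares cannot show how regular a middle place was. With only 58Z-1 and 58Z-2 as the dSpm samples the rule took 262 genes. With only 58Z-4b and 58Z-5b it took 719. All 155 are in both sets, which follows from the rule, since fewer dSpm samples loosen the order it asks for.

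**Figure D4:**
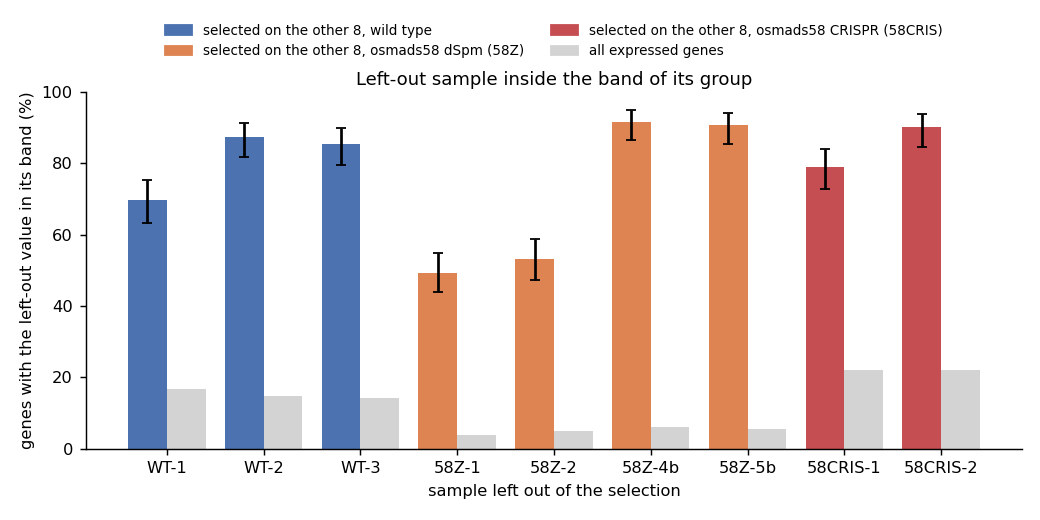
Share of genes, in percent, whose value in the left-out sample lay in the band of its group, among genes chosen on the other 8 samples (coloured bars, with 95% Wilson intervals) and among all expressed genes (grey bars). The bars of 58Z-1 (49.4%) and 58Z-2 (53.1%) are the lowest coloured ones, and those of 58Z-4b (91.7%) and 58Z-5b (90.6%) the highest.

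The rule sets no order inside a group, although it limits how far the dSpm samples can spread. Among the 155 genes, 58Z-2 was the highest dSpm sample in 92 (59.4%) and 58Z-4b the lowest in 84 (54.2%). Over all expressed genes these shares were 26.1 and 15.4%. With TMM levels 58Z-2 was no longer ahead of 58Z-1, each being the highest in 73 (47.1%), while 58Z-4b was the lowest in 86. Both 58Z-4b and 58Z-5b were below both 58Z-1 and 58Z-2 in 106 genes (68.4%, against 22.6% of all), and above both in 8 (5.16%, against 36.0%). With TMM levels these counts were 120 and 2. In the 338 genes of the mirrored rule, 58Z-4b and 58Z-5b were above the other dSpm samples in 162 (47.9%) and below in 32 (9.47%).

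A direct fit of 58Z-4b and 58Z-5b against 58Z-1 and 58Z-2 called 7 of the 155 genes, all of them lower in 58Z-4b and 58Z-5b, where 2.21% of all genes tested were called in either direction. Over all genes, 364 calls were lower and 237 higher. The log2 fold change was below 0 in all but 11 of the 155, with a median of -0.43 against 0.01 over all genes. The count of 7 was 14 without WT-1, 3 without WT-2, 2 without WT-3, 3 without 58CRIS-1 or 58CRIS-2, and 0 without 58Z-4b or 58Z-5b, where 41 and 42 of the 155 had an unadjusted p under 0.05. Calls over all genes moved too, from 601 to 1470, 279, 237, 220, 222, 24 and 10 in the same order. DESeq2 called 19 of the 155 and 2098 of all genes. The summed level of the meiotic genes was also highest in these samples, at 1187 and 1210 CPM against 660 and 777, and its part in this split was not tested. *OsMADS58* did not follow the split, at 1.87 and 2.1 CPM in 58Z-4b and 58Z-5b against 1.94 and 0.721 CPM in 58Z-1 and 58Z-2. No label says what the suffix b stands for.

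**Figure D5:**
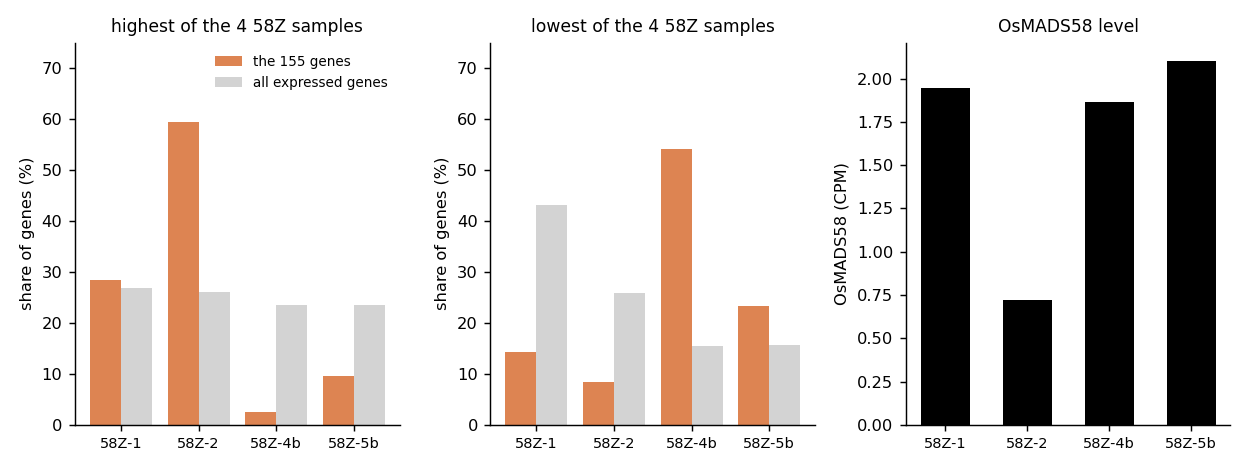
Share of the 155 genes (orange) and of all expressed genes (grey) in which each dSpm sample was the highest or the lowest of the 4, in percent, and the level of *OsMADS58* in the same samples in CPM. 58Z-2 was the highest in 59.4% of the 155 genes by the column sum (47.1% with TMM levels, level with 58Z-1) and had the least *OsMADS58*, 0.721 CPM.

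In wild type, WT-1 had the most *OsMADS58* transcript and was the highest sample in 102 of the 155 genes (65.8%, against 38.1% of all). In CRISPR, 58CRIS-1 had less *OsMADS58* than 58CRIS-2 and was the higher sample in 105 (67.7%, against 45.0%). The groups thus differed in whether the genes and the transcript went together inside them. Across the 9 samples, deviations from the group means on the log2 scale correlated with those of *OsMADS58* with a median r of -0.26 over the 155 genes, and 48 (31.0%) had a positive r, against a median of -0.06 and 46.5% over all genes. All these correlations share the same 9 values of *OsMADS58*. Without 58Z-2 the median was 0.26 and 102 genes (65.8%) had a positive r, and without WT-1 it was -0.58 and 24 (15.5%) did. The sign rests on 58Z-2, whose *OsMADS58* value comes from 47 counts, so the step with the *OsMADS58* level is one between groups and no relation within groups was established.

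The genes were spread over all 12 chromosomes. Chromosome 1 held 30 of them, 19.4% against 14.2% of all expressed genes, and chromosome 10 held 5, 3.23% against 4.83%. Another of the 155 lay within 10 annotated loci of 14 of them (9.03%), against 6.85% for other expressed genes. The nearest to *OsMADS58* on chromosome 5 was 15 loci away.

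In 2 places the genes were direct neighbours, and these pairs were picked out after their values had been seen. LOC_Os02g44990 was at 528, 483 and 486 CPM in wild type, 253, 331, 143 and 147 CPM in dSpm, and 65.1 and 59.0 CPM in CRISPR. Its neighbour LOC_Os02g45000 was at 137, 111 and 109 CPM in wild type, 98.0, 108, 73.4 and 74.9 CPM in dSpm, and 29.4 and 25.2 CPM in CRISPR. The first lost more than the second between wild type and dSpm, with 39.6 against 20.0% of the log2 distance. LOC_Os02g01870 was at 42.4, 56.0 and 48.7 CPM in wild type, 31.6, 35.2, 27.8 and 28.2 CPM in dSpm, and 23.6 and 22.5 CPM in CRISPR. LOC_Os02g01880 beside it was at 6.68, 3.14 and 3.14 CPM in wild type, 2.04, 2.22, 1.55 and 1.80 CPM in dSpm, and 0.901 and 1.00 CPM in CRISPR. The libraries were strand-specific according to the methods of the study, but whether the counting used strand is not stated, so these neighbours may share reads.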

How the data were processed

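RNA-seq libraries of 9 panicle samples were used, 3 wild type, 4 *osmads58* dSpm and 2 *osmads58* CRISPR, grouped by their labels. Against the MSU v7.0 genome and annotation the authors ran Hisat 2.1.0, then Stringtie 1.3.3b, and deposited estimated counts per gene as whole numbers. The step from Stringtie's coverage to whole counts is not given in the sources used here. Between 37.2 and 40.7% of the counts from 1 to 40 were multiples of 4, so 1 read pair may weigh several counts, and limits from counting error are then too narrow. Samples are separate lines or pools, and p-values measure the spread between these samples.

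CPM was the count over the column sum. The fits used edgeR 4.0.16 in R 4.3.3 (TMM, filterByExpr, glmQLFit and glmQLFTest, 1 fit of all samples in 3 groups, Benjamini-Hochberg adjustment over all genes). A trial on simulated counts used the same spread for all genes and no split inside a group. It checked that the fit runs as meant and does not bear on how firm the calls are. Rounding changed no count. 58Z-4b and 58Z-5b were split from 58Z-1 and 58Z-2 by label suffix in a second fit. A value of 0.1 CPM was added before log2 ratios per sample and before ranking. Alternatives were DESeq2 1.42.0, RLE factors, no filter, other thresholds, only the groups compared, a replicate block, counts divided by 4, and leaving out samples.

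The genes and lists were chosen with earlier results of these data known. Named genes were those that a table of the study annotates, up to 10 of its pathway table, and the 2 with the largest ratio, since no other identifier could be paired with a name: 0 matched the gene table at hand. The authors' own fold changes and p-values were not used. The networks, ChIP-seq targets and GO terms of the study were not used here.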

Additional observations from a re-analysis of the deposited data

Results flagged for a closer look

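In the 4 dSpm samples, 58Z-2 stood apart from the others by Dixon's criterion at its 95% level for LOC_Os01g06630, at 3.05 CPM against 0.370 to 0.785 CPM, and for LOC_Os04g39980, at 22.8 CPM against 7.93 to 10.4 CPM. In both it was the highest dSpm sample. For *OsMADS58* it stood apart in the other direction, at 0.721 CPM against 1.87 to 2.1 CPM. Chance alone flags about 5% of groups of this size. Over all 155 genes 6 were flagged (3.87%), 58Z-2 being the far sample in 5 and 58Z-1 in 1, against 9.66% of all expressed genes. The rule that chose the 155 limits the spread of the dSpm samples, and the cause was not tested.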

How the results depend on the processing

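The count of 155 genes became 290 with TMM levels, 318 with RLE levels, 262 with 58Z-1 and 58Z-2 as the dSpm samples and 719 with 58Z-4b and 58Z-5b, and ranged from 169 to 314 with 1 sample left out. Of the 155, 143 met the rule with TMM and 154 with RLE. The mirrored count of 338 became 179 with TMM. With TMM the left-out sample was inside its band in 43.8% of genes for 58Z-1, 64.0% for 58Z-2 and 93.7% for 58CRIS-2. The 4 calls of dSpm against wild type became 11 with no fold threshold, 1 at an adjusted p under 0.01, 29 with DESeq2, 7 with no filter, 2 with only the groups compared, 8 with counts divided by 4, 66 with 58Z-4b and 58Z-5b only and 0 with 58Z-1 and 58Z-2 only, and ranged from 1 to 28 with 1 sample left out. The 136 calls of CRISPR against wild type became 49 at an adjusted p under 0.01 and ranged from 4 to 136. The 34 calls of CRISPR against dSpm became 65 with no fold threshold, 12 at an adjusted p under 0.01, 52 with DESeq2, 19 with only the groups compared and 67 with 58Z-1 and 58Z-2 only, and ranged from 3 to 36. The 7 calls among the dSpm samples became 19 with DESeq2 and ranged from 0 to 14. The replicate number as a block changed the counts against wild type to 0 in dSpm, where 64 genes had an unadjusted p under 0.05 by edgeR, and 138 in CRISPR. The count of CRISPR against dSpm became 75. WT-3, 58Z-4b and 58Z-5b share their number with no other sample, so each was fitted exactly. The block fit thus compares only samples numbered 1 and 2, and its 0 is no test of a shared batch. Deviations of same-numbered samples correlated at 0.31 and 0.13 between wild type and dSpm and at -0.06 to 0.01 in the pairs with CRISPR, and no label ties a number to a shared batch. For the fold changes of the 12 named genes against wild type, 342 alternative values kept their side of the threshold, 52 lost a call, 14 gained one and 0 changed direction. Apart from what fewer samples or genes imply, the cause was not tested. With 20 to 47 counts in 3 of the samples, the depth limits what can be read from *OsMADS58* within a group.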
